A study of Mus musculus with 8 samples.

Results

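The cytosolic ribosomal proteins are the protein components of the large and the small subunit of the ribosome that works in the cytosol. They were taken as every non-control probe of the array whose gene name is Rpl, Rplp, Rps or Rpsa with its number, without the Rps6k kinases, and whose signal the scanner software called well above background on 4 or more of the 8 arrays. Of 185 such probes of 80 genes, 179 probes of 78 genes passed, of 26076 probes of 20056 genes that passed on the whole array. The large subunit had 112 of these probes for 46 genes and the small subunit 67 probes for 32 genes. The 6 probes that did not pass included the only probes of Rpl3l and Rpl39l and 1 further probe each of Rpl10l, Rps15a and Rps27a. The choice used no difference between the diets, but Rpl10l passed on just 4 arrays, of which 3 were high-fat arrays.

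The samples were pancreatic beta cell samples of C57BL/6 mice, 4 from mice on a high-fat diet and 4 from mice on a control (chow) diet. Genotype alterations, age, sex, length of the diet and the way the beta cells were collected were not given in the sources used here. Each sample was labelled with 1 dye and hybridised to 1 Agilent mouse array, and the labels call the samples biological replicates without tying them to single animals. High-fat and control replicates 1 and 2 lay on slide 1, and high-fat and control replicates 3 and 4 lay on slide 2. On both slides the high-fat arrays held positions 2 and 4 and the control arrays positions 1 and 3, so that diet and position cannot be told apart, while each slide was scanned in its own session.

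A level here is the log2 of a probe's processed intensity minus that of its array's 75th percentile, so that a difference of 1 is a 2-fold change. The 75th percentile was 363.4, 472.0, 459.6 and 393.7 intensity units on high-fat arrays 1 to 4 and 710.8, 472.6, 333.6 and 445.8 on control arrays 1 to 4. Between 63.6% and 68.6% of an array's spots were well above background and 0 spots were saturated. All 11 beta cell markers were well above background on all 8 arrays, Ins1 and Ins2 among them, as were the 16 acinar markers that were measured, of digestive enzymes such as Cela1, Cpa1 and Amy2a5. Levels of different probes are not read as amounts of mRNA set against each other, since probes differ in how they hybridise.

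Ribosomal proteins are made in near-equal amounts, 1 copy of nearly each per ribosome, and those not built into a ribosome are broken down. Their mRNAs begin with a run of pyrimidines (a terminal oligopyrimidine tract), through which mTORC1 signalling and the protein LARP1 control their translation, mostly without a change in mRNA amount. Beta cells make very large amounts of proinsulin, and their protein synthesis is known to respond to glucose and to nutrient load.

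Since the genes of this family moved together in these arrays, a stretch around the transcription start is shown for 6 of them, from 40 bases before to 20 bases from the annotated start, on the gene's own strand (RefSeq, GRCm38.p6). Capitals mark runs of at least 8 pyrimidines that begin with C, and the motif CCGGAAG or its reverse complement CTTCCGG, a core of the sites of ETS factors.
Rps6, chr4:86857348-86857407 (minus strand): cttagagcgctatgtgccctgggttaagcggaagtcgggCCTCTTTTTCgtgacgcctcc
Rplp2, chr7:141447611-141447670 (plus strand): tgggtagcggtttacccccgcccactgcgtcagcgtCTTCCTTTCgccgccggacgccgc
Rps27, chr3:90213629-90213688 (minus strand): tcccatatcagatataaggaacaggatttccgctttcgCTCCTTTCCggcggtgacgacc
Rps27l, chr9:66946046-66946105 (plus strand): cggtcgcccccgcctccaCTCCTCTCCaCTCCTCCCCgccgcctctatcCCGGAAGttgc
Rpl19, chr11:98026670-98026729 (plus strand): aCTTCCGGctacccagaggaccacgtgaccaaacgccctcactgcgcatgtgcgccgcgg
Rpl10, chrX:74270776-74270835 (plus strand): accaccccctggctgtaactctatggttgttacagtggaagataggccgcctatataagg
The pyrimidine run lies across or beside the start in Rps6, Rplp2 and Rps27, and the windows of Rpl19 and Rpl10 hold none.

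RefSeq held a promoter (250 bases before to 50 after the start) for 57 of the 78 genes. A pyrimidine run of at least 8 bases that begins with C, on the gene's strand and within 20 bases of the start, was found in 29 of these 57 genes (50.9%), against 3880 of 26968 other genes with a promoter (14.4%). CCGGAAG on either strand was found anywhere in the 300 bases in 23 of the 57 (40.4%), against 2660 of the others (9.86%). AAGATGGC on either strand was found in 5 (8.77%), against 857 (3.18%), and TATAAA on either strand in 6 (10.5%), against 4228 (15.7%). The other genes were not limited to the 20056 genes that passed on the array, while the members all passed. The shares therefore do not separate a trait of the family from one of expressed genes. A run of pyrimidines and the form CTTCCGG can share bases, and a match is a description of the letters only.

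Several of these genes have more than 1 probe, and 3 probes of Rpl7a are listed at overlapping places at the end of its transcript (mm9, plus strand). The first and the second are listed at the same bases and differ in sequence, so both cannot match that place in full. What each of the 3 probes reads was not tested. Capitals mark the bases in which the second and the third differ from the first, 6 bases in each. They are shown because the second had the largest difference between the slides among all 179 probes, and they were chosen after their values were seen.
Rpl7a, A_55_P2001347, chr2:26768759-26768818: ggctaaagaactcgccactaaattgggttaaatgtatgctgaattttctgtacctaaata
Rpl7a, A_55_P2037922, chr2:26768759-26768818: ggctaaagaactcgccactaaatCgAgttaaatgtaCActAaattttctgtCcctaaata
Rpl7a, A_55_P2151897, chr2:26768755-26768814: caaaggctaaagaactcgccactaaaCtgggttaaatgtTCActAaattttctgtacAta
Slide 2 minus slide 1 was 0.35 for the first probe, 0.64 for the second and 0.50 for the third, and none passed an adjusted p of 0.05 (limma, adjusted p = 0.280, 0.0844 and 0.118). Of the 179 probes, 0 passed it between the slides, against 2.73% of all probes. Their diet differences were closer to each other, 0.17, 0.21 and 0.22 with SEs of 0.19, 0.27 and 0.22.

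High-fat diet against control diet was the comparison the study was built on. In the fit over all 20056 genes (limma, 4 against 4 arrays, Benjamini-Hochberg adjustment), 0 of the 78 ribosomal protein genes passed an adjusted p of 0.05, and 0.0% of all genes did. At an unadjusted p under 0.05 there were 0 of 78 members, against 5.8% of all genes (1164). The lowest adjusted p among the members was 0.859. All 78 differences nevertheless lay above 0, with a median of 0.15 on the log2 scale, where 49.7% of all genes lay above 0 and their median was -0.0015. That count depends on the scaling: 78 of 78 lay above 0 with median scaling, 62 in the deposited value table and 48 with quantile normalization, where the median was 0.027. It turned with normexp background correction, where 2 of 78 lay above 0 and the median was -0.28. The members' mean on high-fat array 2, which has 7 smeared spots, was then -1.17 from its mean over 8 arrays, and without such spots 77 of 78 lay above 0 with a median of 0.13. It also depends on single arrays: leaving out control replicate 1 gave a median of 0.060, and leaving out control replicate 3 gave 0.26. The members are not independent of each other, as the next comparison shows, and in no member did the 4 high-fat arrays all lie above the 4 control arrays (1.75% of all genes did so).

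**Figure D1:**
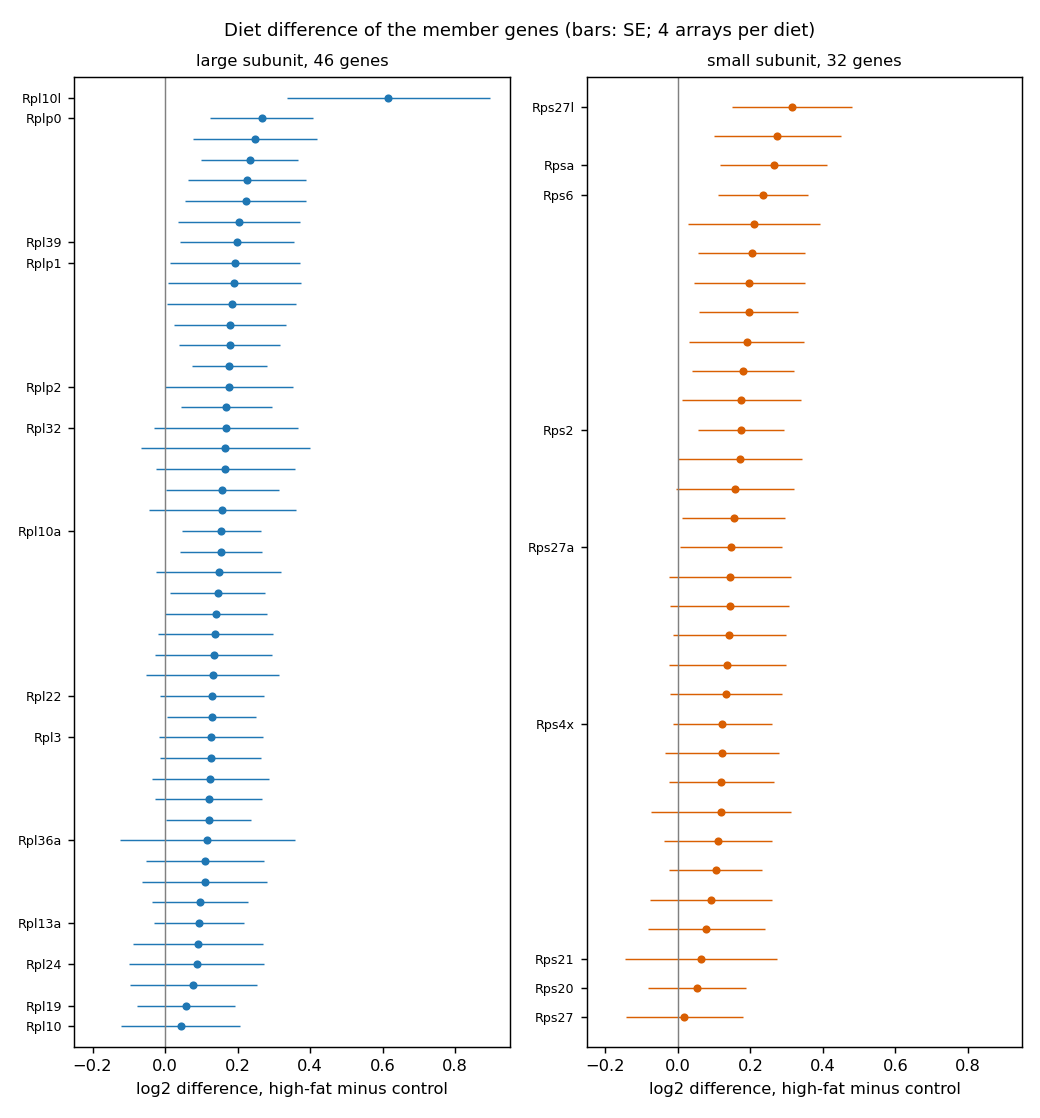
Log2 difference, high-fat minus control, of each of the 78 genes with its SE (4 arrays per diet), labelled for genes described in the text, large subunit on the left and small subunit on the right. All points lie above 0 with scaling to the 75th percentile (48 of 78 with quantile normalization and 2 of 78 with normexp background correction), and apart from Rpl10l they run from 0.018 in Rps27 to 0.31 in Rps27l.

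The 78 genes went up and down together from array to array. Relative to each gene's own mean over the 8 arrays, the members averaged 0.068, 0.23, -0.087 and 0.11 on high-fat arrays 1 to 4 and -0.35, -0.055, 0.23 and -0.14 on control arrays 1 to 4. All 78 genes were below their own mean on control array 1, while 76 of 78 were above it on control array 3 and 75 of the 77 measured were above it on high-fat array 2. On the same 3 arrays, 47.8%, 61.17% and 50.12% of all genes were above their own mean. The diets overlapped: control array 1 held the lowest value, and control array 3 was nearly as high as the highest high-fat array. The place of control array 3 depends on the scaling. With median scaling it stood at 0.055 and high-fat array 2 at 0.37, while control array 1 was still the lowest at -0.33 and the diets still overlapped. The means of these deviations were 0.080 ± 0.13 for high-fat and -0.079 ± 0.24 for control (SD, n = 4 each), so the difference between diets was smaller than the spread of the control arrays.

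**Figure D2:**
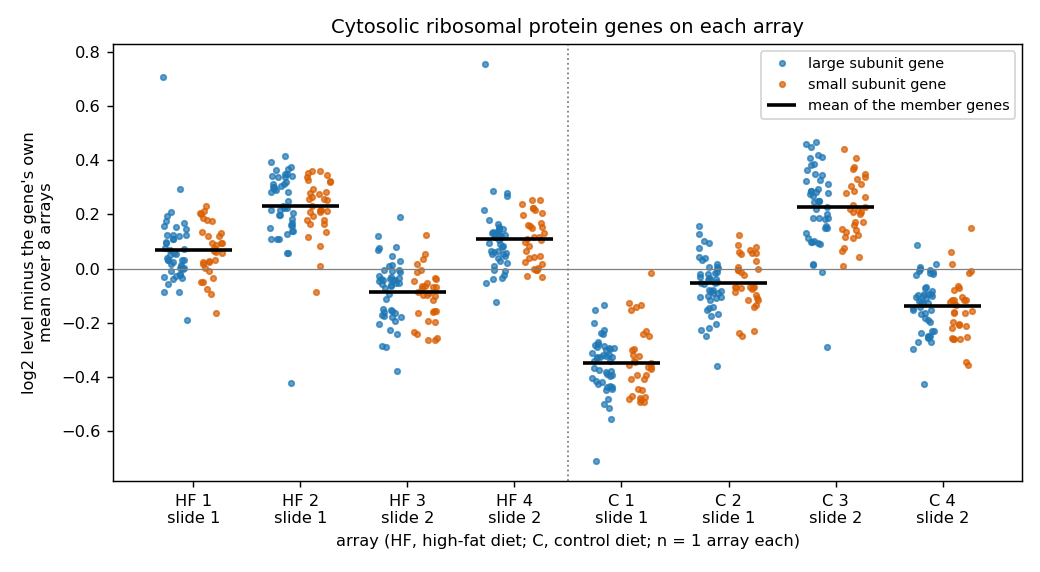
Level of each ribosomal protein gene on each array minus its own mean over 8 arrays (log2), high-fat arrays left and control arrays right, with the mean of the members as a bar. The cloud shifts as a whole from array to array, and control arrays 1 and 3 lie at -0.35 and 0.23.

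This array-wide shift made up 72.71% of the summed squared deviations of the members. Each of the 77 members with a value on all 8 arrays was set against the mean of the others over the 8 arrays, and the median Pearson r was 0.91, with 65 above 0.8. For the 77 mitochondrial ribosomal protein genes treated in the same way the median r was 0.66, and 19848 other genes had a median r of 0.080 with the members' mean. These values share the 8 arrays and the scaling factor of each, and are given as a description. The groups were not matched for brightness. Over the arrays the mean level was between 5.55 and 6.15 for the members and between 1.57 and 1.85 for the mitochondrial genes. For all genes it was between -0.67 and -0.44. Whether other genes as bright as the members move together in the same way was not tested. Among the members, the weakest followers were Rpl10l (r = 0.256), Rps21 (0.587) and Rps4l (0.614).

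The shift went with the brightness of some arrays and not of others. Control array 1, with the lowest members' mean, had the highest 75th percentile of intensity (710.8), and control array 3, with a high mean, had the lowest (333.6). Before scaling, the members' mean log2 intensity was 14.48, 15.03, 14.66 and 14.65 on high-fat arrays 1 to 4. It was 15.03, 14.73, 14.51 and 14.56 on control arrays 1 to 4, so the order of control arrays 1 and 3 was the reverse before scaling. High-fat array 2, with the highest members' mean, was not dim: its 75th percentile of 472.0 was nearly that of control array 2 (472.6), where the members' mean was -0.055. The 98th percentile of all genes' levels was high on the same arrays as the members' mean, with 5.72, 5.85, 5.64 and 5.78 on high-fat arrays 1 to 4 and 5.36, 5.61, 5.84 and 5.57 on control arrays 1 to 4. It was lowest on control array 1 and highest on high-fat array 2 and control array 3. The members are themselves counted in this percentile, and their mean level lay above it on every array. The percentile is therefore not independent of the members' mean. With quantile normalization, which gives all arrays one distribution, the members' means were 0.0018, 0.049, -0.025 and 0.056 on the high-fat arrays and -0.071, -0.0062, 0.042 and -0.046 on the control arrays. The part of array brightness in the shift was not tested further.

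**Figure D3:**
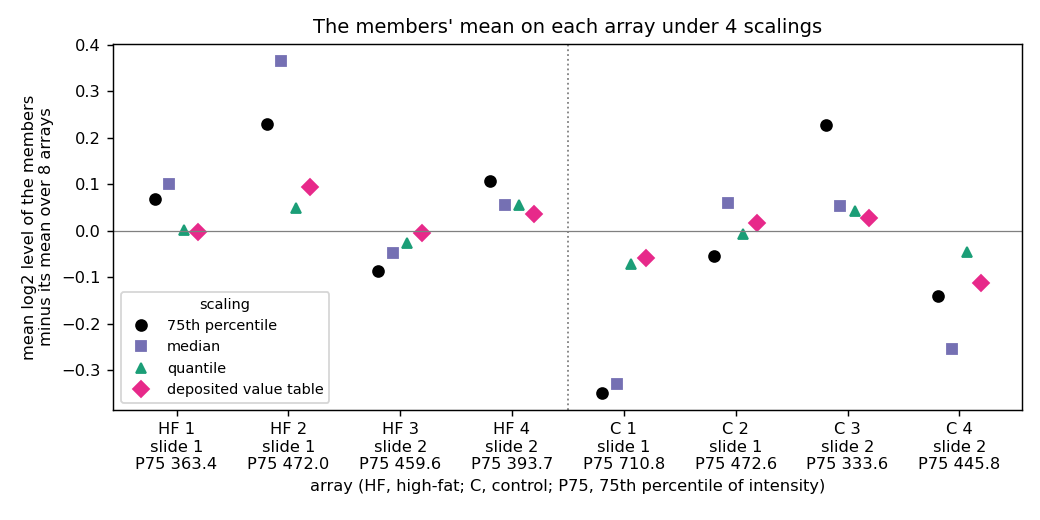
Mean level of the members on each array minus its mean over 8 arrays (log2) with scaling to the 75th percentile, to the median, by quantiles and in the deposited value table, high-fat arrays left. The range of the means is widest with the first 2 scalings, and with quantile normalization they lie between -0.071 and 0.056.

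Acinar markers, which mark the enzyme-making cells around the islets, moved in part in the same way. Their mean level was 7.80, 7.41, 6.89 and 7.13 on high-fat arrays 1 to 4 and 6.55, 7.20, 7.83 and 7.20 on control arrays 1 to 4. It was thus lowest on control array 1 and highest on control array 3, the arrays where the ribosomal proteins were low and high, while on high-fat array 1 it was high and the ribosomal proteins stood near their mean. The beta cell markers differed less, with mean levels between 4.88 and 5.15 on the high-fat arrays and between 5.03 and 5.17 on the control arrays. Ductal markers, of the cells that line the pancreatic ducts, had their ends on the same arrays as the members, with a mean level of -0.29 on control array 1 and 0.55 on high-fat array 2. Their mean was 0.21, 0.55, -0.17 and 0.49 on high-fat arrays 1 to 4 and -0.29, 0.27, 0.20 and 0.34 on control arrays 1 to 4.

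Some other lists of cell markers had larger median differences between the diets than the ribosomal proteins. All 8 cycling cell markers measured lay above 0, with a median of 0.63 that was -0.44 on slide 1 and 1.72 on slide 2, the opposite order of the members. Below 0 lay the medians of 10 lymphocyte markers (-1.01), 8 alpha cell markers (-0.52), 7 delta and PP cell markers (-0.39), 11 macrophage markers (-0.37) and 6 Schwann cell markers (-0.16). Above 0 lay those of 9 stellate cell and pericyte markers (0.23), 9 ductal (0.15), 16 acinar (0.10) and 9 endothelial markers (0.083), and the 11 beta cell markers had 0.026. The mean level of the alpha cell list was between 2.07 and 2.37 on the high-fat arrays and between 2.41 and 2.93 on the control arrays, without overlap, while the ranges of the lymphocyte list, -3.69 to -1.30 and -1.93 to -1.08, overlapped. In bulk samples fewer cells of a type and less RNA per cell cannot be told apart, and the part of RNA from other cells in the ribosomal protein levels was not tested.

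The diet difference was also taken within each slide, since the arrays of a slide share the slide and its scan session. On slide 1 all 78 members were higher in high-fat samples by a median of 0.35, from 0.15 in Rps2 to 0.62 in Rpl10l, where 53.9% of all genes were above 0. On slide 2, 22 of 78 were above 0, where 41.7% of all genes were, and the median was -0.037, beside -0.050 for all genes. The sign on slide 2 depends on the scaling, with 68 of 78 above 0 and a median of 0.10 after median scaling, 53 and 0.056 in the deposited value table, and 36 and -0.0075 with quantile normalization. The slide 2 medians of all genes under the same scalings were 0.087, -0.0005 and -0.011, so that median scaling moved all genes and the members alike. The median on slide 1 was above 0 with each of these, at 0.36, 0.063 and 0.060. None passed the adjusted threshold on either slide (0.0% of all genes on each). On slide 1, 5 members (Rpl12, Rpl13, Rplp1, Rps16 and Rpsa) had an unadjusted p under 0.05, beside 7.11% of all genes, and on slide 2 it was 0 members beside 6.6% of all genes.

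The difference between the slides was tested as an interaction, the diet difference on slide 2 minus that on slide 1. It lay below 0 in 77 of 78 members, with a median of -0.37, where 58.4% of all genes lay below 0 with a median of -0.072. No member and 0.0% of all genes passed the adjusted threshold (limma). At an unadjusted p under 0.05 there was 1 member, Rplp1, against 6.85% of all genes. With quantile normalization the median interaction of the members was -0.035, and in the deposited value table it was 0.021. The 16 acinar markers had a median of 0.58 on slide 1, where all 16 were above 0, and of -0.39 on slide 2, where 0 of 16 were. With diet set aside, slide 2 minus slide 1 had a median of 0.060 over the members and lay above 0 in 50 of 78 (54.1% of all genes), and 0 of 78 passed the adjusted threshold, against 3.26% of all genes.

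**Figure D4:**
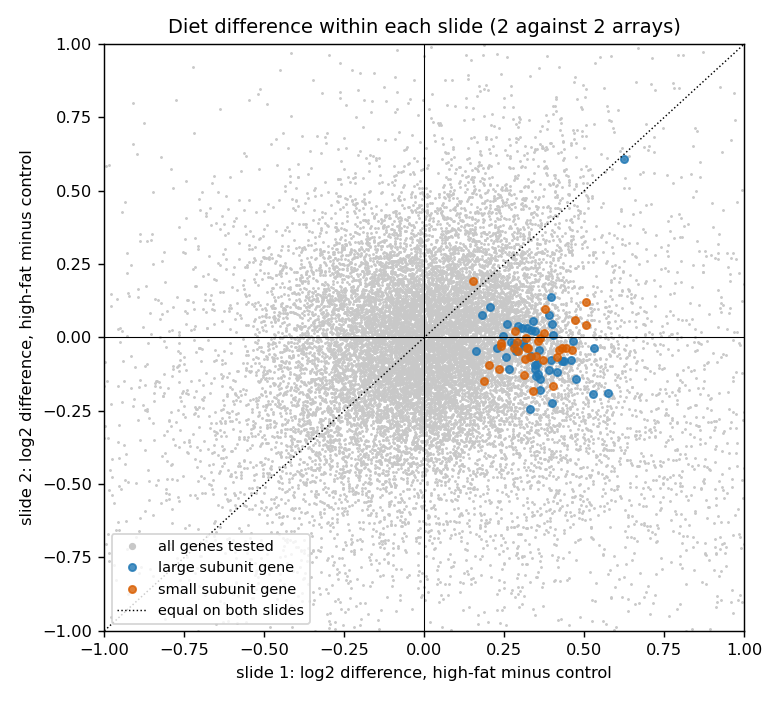
Log2 difference between high-fat and control on slide 1 (horizontal) and slide 2 (vertical), 2 arrays of each diet per slide, for all genes (grey) and the members (blue, large subunit; orange, small subunit). The axes stop at 1 in each direction, which leaves out 1346 genes and no member, and the members form a cluster around 0.35 on slide 1 and -0.037 on slide 2 (0.36 and 0.10 with median scaling). The medians of all genes were 0.027 and -0.050 (0.044 and 0.087 with median scaling).

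Large and small subunit genes had values close to each other, and no test was made between them. The median diet difference was 0.15 over the 46 large subunit genes (from 0.043 to 0.62) and 0.15 over the 32 small subunit genes (from 0.018 to 0.31). On single arrays the mean deviation of the large subunit minus that of the small subunit was between -0.0046 and 0.020 on the high-fat arrays and between -0.018 and 0.012 on the control arrays. On slide 1 the medians were 0.35 for the large and 0.33 for the small subunit, and on slide 2 -0.044 and -0.036.

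The proteins of the stalk, the flexible arm of the large subunit that recruits translation factors, are Rplp0 at its base and the acidic pair Rplp1 and Rplp2. Rplp0 had levels of 7.14, 7.51, 7.10 and 7.23 on high-fat arrays 1 to 4 and 6.78, 7.07, 7.21 and 6.84 on control arrays 1 to 4. The high-fat arrays were the higher ones apart from control array 3, and the difference was 0.27 (SE 0.14, limma adjusted p = 0.887). Its 3 probes gave 0.27, 0.29 and 0.25.
Rplp1 had 7.22, 7.26, 7.07 and 7.002 on the high-fat arrays and 6.64, 6.68, 7.40 and 7.05 on the control arrays. Both slide 1 controls lay below all other arrays, and control array 3 lay above all others. The difference was 0.19 (SE 0.18, limma adjusted p = 0.936), with 0.57 on slide 1 and -0.19 on slide 2, and the interaction of -0.76 had an unadjusted p of 0.0131 and an adjusted p of 0.708. Rplp2 had a difference of 0.18 (SE 0.18) and followed the mean of the other members with r = 0.984.

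Rpl3 and Rpl10 lie near the centre where peptide bonds form and where the subunits are joined. Rpl3 differed by 0.13 (SE 0.14), while the probe of its muscle paralogue Rpl3l was well above background on 0 arrays. Rpl10 had 7.94, 8.18, 7.53 and 7.69 on the high-fat arrays and 7.54, 7.92, 7.91 and 7.80 on the control arrays. The high-fat arrays of slide 1 were the highest and those of slide 2 were not, and the difference was 0.043 (SE 0.16, limma adjusted p = 0.982), with 0.33 on slide 1 and -0.24 on slide 2. Its 3 probes gave 0.079, 0.043 and 0.025.

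Rpl10l is a retrogene copy of Rpl10 known from the testis. The probes that read the pair are shown because the paralogues held the ends of the list of large subunit genes (mm9).
Rpl10, A_55_P2005081, chrX:71518307-71518366 (plus strand): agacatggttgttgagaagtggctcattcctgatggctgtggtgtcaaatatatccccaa
Rpl10l, A_55_P2027995, chr12:67384868-67384927 (minus strand): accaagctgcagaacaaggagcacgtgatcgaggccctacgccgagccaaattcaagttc
The Rpl10l probe was well above background on 3 of 4 high-fat arrays and on 1 of 4 control arrays. Its levels were -3.86, -4.99, -4.37 and -3.81 on the high-fat arrays and -5.28, -4.81, -4.85 and -4.55 on the control arrays. High-fat array 2 lay within the range of the controls, and the difference of 0.62 had an SE of 0.28 and a limma adjusted p of 0.859. It was the highest difference of the 78, at the edge of detection, and the other Rpl10l probe was well above background on 0 arrays. Rpl10l is a member mainly through the high-fat arrays, where it is higher, so the sign of its difference is no support for a diet difference. Without Rpl10l, 77 of 77 genes lay above 0 with a median of 0.15.

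Other members of the large subunit were close to the family's median. Rpl39, a small protein of the exit tunnel, differed by 0.20 (SE 0.16), and the probe of its paralogue Rpl39l was well above background on 0 arrays. Rpl13a, known outside the ribosome for a part in silencing of inflammatory mRNAs, differed by 0.094 (SE 0.12), and Rpl22, an RNA-binding protein whose loss raises its paralogue, by 0.13 (SE 0.14). Rpl36a was fitted without high-fat arrays 2 and 4, where its brightest probe was marked as an outlier, and differed by 0.12 (SE 0.24). Its 2 other probes, measured on all 8 arrays, gave 0.23 and 0.096. Rpl19 stood low with 0.057 (SE 0.14). Rpl32 and Rpl24 had the lowest interactions after Rplp1, -0.72 and -0.62, with limma adjusted p of 0.734 and 0.767, and Rpl10a was among the highest with -0.10. On slide 1 Rpl32 differed by 0.53 and Rpl24 by 0.40, and on slide 2 by -0.19 and -0.22.

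In the small subunit, Rps6 is the protein that S6 kinase phosphorylates downstream of mTORC1. Its levels were 6.39, 6.58, 6.23 and 6.33 on the high-fat arrays and 5.97, 6.25, 6.31 and 6.06 on the control arrays. High-fat array 3 lay below control arrays 2 and 3, so the groups overlapped, and the difference was 0.24 (SE 0.12, limma adjusted p = 0.884). Its probe in the coding sequence is shown since Rps6 is the member most tied to nutrient signalling (mm9, minus strand), and its 2 other probes gave 0.21 and 0.14.
Rps6, A_55_P1963817, chr4:86500748-86500807: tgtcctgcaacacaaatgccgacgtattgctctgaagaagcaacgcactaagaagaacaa
Phosphorylation is not measured by these arrays.

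Rpsa, a protein of the small subunit's head also known as a laminin receptor, had 6.91, 7.04, 6.78 and 6.94 on the high-fat arrays and 6.30, 6.72, 6.94 and 6.67 on the control arrays. Its difference was 0.26 (SE 0.15, limma adjusted p = 0.898), and its 4 probes, which ran from 0.094 to 0.26, spread more widely than those of any other gene with several probes.

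Rps27 and its paralogue Rps27l lay at opposite ends of the small subunit. Rps27l, known as a target of p53, had 4.59, 4.91, 4.55 and 4.81 on the high-fat arrays and 4.07, 4.43, 4.77 and 4.35 on the control arrays. The high-fat arrays exceeded all controls but control array 3, and the difference was 0.31 (SE 0.17, limma adjusted p = 0.884). Rps27 had 6.65, 6.82, 6.54 and 6.83 on the high-fat arrays and 6.34, 6.76, 7.04 and 6.63 on the control arrays, which overlapped throughout, with a difference of 0.018 (SE 0.16, limma adjusted p = 0.990). The difference between these paralogues was not tested. All 4 probes of Rps27 were listed on chromosome 9 of mm9, while RefSeq places the gene on chromosome 3, and they gave 0.0052, 0.018, 0.020 and 0.059.

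The remaining named genes of the small subunit were spread around the median. Rps4x, encoded on the X chromosome, differed by 0.12 (SE 0.14), and Rps27a, made as a fusion with ubiquitin, by 0.15 (SE 0.14). Rps20 and Rps21 stood low, with 0.053 (SE 0.13) and 0.064 (SE 0.21). Rps21 was the 1 member with an unadjusted p under 0.05 between the slides (19.1% of all genes had one), 0.48 higher on slide 2 with a limma unadjusted p of 0.00601. Rps2 had the highest interaction, 0.040, with differences of 0.15 on slide 1 and 0.19 on slide 2, and was the 1 member above 0 in that measure.

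Over the 179 probes, each on its own, all lay above 0 (47.5% of all probes), from 0.0052 to 0.62 with a median of 0.16, and 0 passed the adjusted threshold (0.0% of all probes). For 59 genes with several probes, up to 7, the range of the diet difference within a gene had a median of 0.054 and reached 0.17 in Rpsa. The r of a probe with the members' mean over the 8 arrays had a median of 0.90, and 139 of 179 exceeded 0.8. A probe of Rpl21 (A_55_P2056521) had r = -0.540 while the brightest probe of this gene had 0.963, so that probes listed under 1 symbol disagreed. For 11 probes of 5 genes (Rps27, Rps29, Rpl13, Rpl36 and Rps4x) the listed mm9 chromosome was not that of the gene in RefSeq, and 1 probe of Rps3 had no position. Only chromosomes were compared, so a probe listed elsewhere on the gene's own chromosome is not counted. A probe of Rps2 (A_55_P2070347) is listed from base 42864841 of chromosome 17, while the other Rps2 probe is listed from base 24857583. Ribosomal protein genes have many processed copies in the mouse genome, and signal from a near-identical copy cannot be told apart from that of the gene. The 11 probes had a median diet difference of 0.15, close to that of all members.

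Subunits and partners named in other ways had values in the same range. Of the 8 genes on that list that were measured, 8 lay above 0 (49.7% of all genes) with a median of 0.15. An unadjusted p under 0.05 was found in 0 of them (5.8% of all genes). The scaffold Rack1 differed by 0.22 (SE 0.13), Rpl22l1 by 0.22 (SE 0.14) and Rpl36al by 0.21 (SE 0.14), while Fau, which encodes Rps30, differed by 0.034 (SE 0.18). The list also holds Rps19bp1, a binding partner of Rps19 and no part of the mature subunit. The 5 features whose pattern over the 8 arrays was most like the members' mean (r from 0.991 to 0.9971) carried no gene symbol in the tables used here.

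Other mRNAs with a 5′ terminal oligopyrimidine tract, among them those of translation initiation and elongation factors, also lay mostly above 0. Of 27 measured, 23 did (49.7% of all genes), with a median of 0.13, 0.23 on slide 1 and 0.0028 on slide 2. Eef1g, a subunit of elongation factor 1, had 5.90, 6.24, 5.86 and 5.96 on the high-fat arrays and 5.48, 5.80, 5.79 and 5.46 on the control arrays. All high-fat arrays lay above all control arrays, as in 1.75% of all genes, and the difference was 0.36 (SE 0.14, limma unadjusted p = 0.0309, adjusted p = 0.805). Eef1b2, another subunit of that factor, differed by 0.30 (SE 0.14). These genes had the smallest p on the list, where 1 of 27 had an unadjusted p under 0.05, against 5.8% of all genes.

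Genes whose products build ribosomes, and are not part of them, had differences on both sides of 0. Of 43 measured genes for assembly and export of the large subunit, 12 lay above 0 (median -0.052), and of 24 for the small subunit 13 did (median 0.011). Of 48 genes for rRNA processing and modification 11 lay above 0 (median -0.040), and of 14 for rRNA synthesis by RNA polymerase I 8 did (median 0.022). Of all genes, 49.7% lay above 0. None of the genes on these lists had an unadjusted p under 0.05, against 5.8% of all genes. The smallest p in these lists belonged to Nvl (-0.59, SE 0.29) and Rrp1b (-0.26, SE 0.16), Tsr3 (0.22, SE 0.15) and Bysl (-0.16, SE 0.11), Naf1 (-0.19, SE 0.11) and Rrp9 (-0.22, SE 0.15), and Cd3eap (-0.27, SE 0.19) and Taf1b (-0.31, SE 0.23).

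Of 32 measured genes of mTORC1 and S6 kinase signalling, 12 lay above 0 (median -0.069), where 49.7% of all genes did. The smallest p on this list belonged to Ddit4l, an inhibitor of mTORC1 (-0.32, SE 0.17), and the Rag GTPase Rragb (-0.38, SE 0.21). The list on surveillance of free ribosomal proteins and stalled ribosomes had 13 of 18 genes above 0 with a median of 0.064. Here Cdkn1a, the cell cycle inhibitor p21 and a target of p53, had 0.019, 0.29, -0.064 and 0.62 on the high-fat arrays and -0.90, -0.52, -0.41 and -0.24 on the control arrays. The 4 high-fat arrays were all higher than the 4 control arrays, as in 1.75% of all genes. The average difference was 0.73 (SE 0.20, limma unadjusted p = 0.00549, adjusted p = 0.595). Ufsp2, a protease that acts on the ubiquitin-like modifier of ribosomes, differed by 0.31 (SE 0.12, limma unadjusted p = 0.0281, adjusted p = 0.793). Cdkn1a and Ufsp2 had the smallest p on this list, where 2 of 18 genes had an unadjusted p under 0.05, against 5.8% of all genes.

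The 78 mitochondrial ribosomal protein genes that were measured had a median of 0.062 with 61 above 0 (49.7% of all genes), and medians of 0.12 on slide 1 and 0.040 on slide 2. Mrpl23 (0.27, SE 0.12) and Mrps27 (-0.19, SE 0.10) had the smallest p among them, with limma adjusted p of 0.843 and 0.890. Their mean, at lower levels of signal, moved by less from array to array than that of the cytosolic family. Relative to each gene's own mean it was -0.055, 0.20, -0.025 and 0.011 on high-fat arrays 1 to 4 and -0.098, 0.048, 0.0076 and -0.089 on control arrays 1 to 4. High-fat array 2 was the highest in both families, while control array 3, nearly as high in the cytosolic family, stood near 0 in the mitochondrial one.

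**Figure D5:**
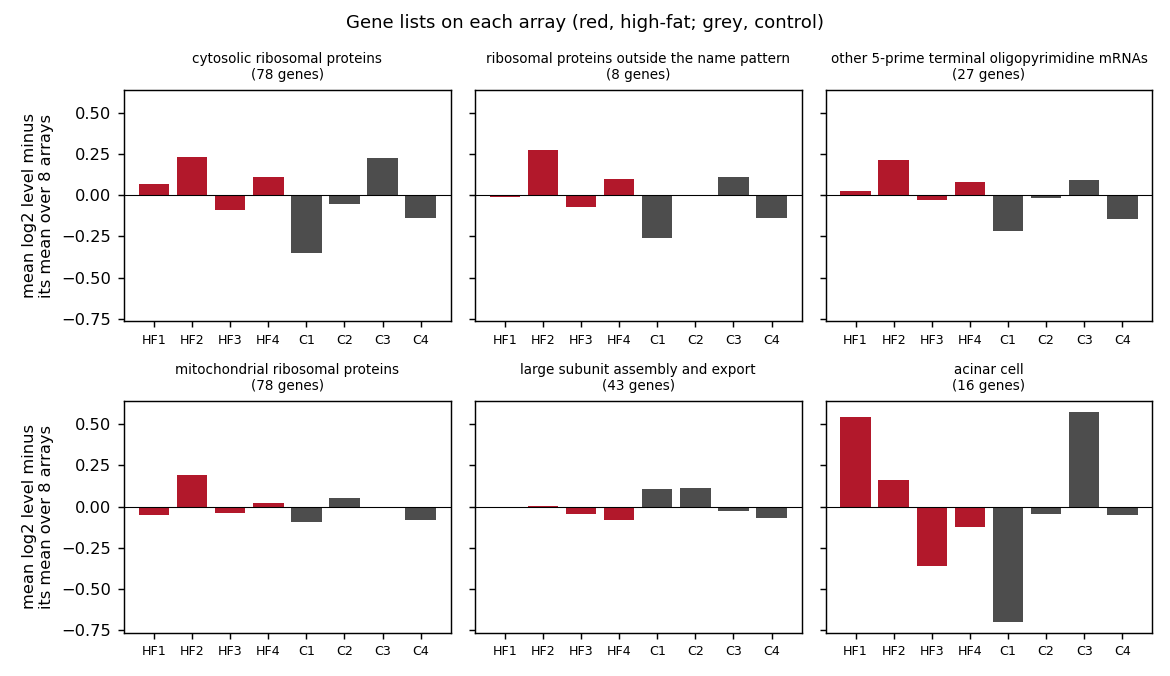
Mean log2 level of 6 gene lists on each array minus its mean over 8 arrays, high-fat arrays (red) left and control arrays (grey) right, 1 array per bar. Lists of cytosolic ribosomal proteins, of their partners and of other oligopyrimidine mRNAs share their low point at control array 1, where the acinar list is lowest too, while the large subunit assembly list is not low there.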

How the data were processed

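The authors deposited 1 scanner file per array, made with Agilent Feature Extraction 11.5.1.1 per the file headers, whose processed signal is an intensity already corrected for background. They also deposited a table of log2 values for the same arrays, for which the submitters' processing notes name limma without parameters, so its scaling and centring are not known in full. The intensity was scaled here to each array's 75th percentile and put on the log2 scale, without control spots or outlier spots and with the spots of a probe averaged. A probe had to be well above background on 4 or more arrays, and of several probes the one with the highest mean represented the gene. Accessions of 28025 of 39429 probes (167 of the 185 members) were in the RefSeq table, GRCm38.p6; member symbols differed in 0. Probe positions are those of the files, on mm9.

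Diet, slide and their interaction were tested by linear models in limma 3.58.1 under R 4.3.3 (lmFit, eBayes), with Benjamini-Hochberg adjustment over all genes and a threshold of 0.05. The number of arrays limits the precision (median SE 0.17), and where replicates did not come from separate mice the p-values measure only the spread between these samples. In simulated data with the same number of arrays the diet test over 19925 genes recovered 53 of 100 genes changed by 1 and 80 of 100 changed by 2 on the log2 scale. Named genes were the 5 highest and 5 lowest diet differences, the 3 highest and 3 lowest interactions, a set of paralogues and core proteins, the 2 smallest p per pathway list, and the 5 features most like the members' mean. Some genes that these rules name are not reported here. The members, the lists and these rules were chosen with earlier results of these data known. Tables and figures were made with Python 3.11.15, pandas 2.3.3, numpy 2.4.6 and matplotlib 3.10.9.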

Additional observations from a re-analysis of the deposited data

How the results depend on the processing

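All 22 alternatives left 0 member genes past the adjusted threshold for diet, and the 16 run for the interaction did so too. The count of members above 0 was 48 with quantile normalization, 2 with normexp background correction and 22 on slide 2 alone. Their median was -0.28 with normexp background correction, -0.037 on slide 2 alone and 0.35 on slide 1 alone, for the large subunit -0.28, -0.044 and 0.35 and for the small subunit -0.28 and -0.036 in the first 2 of these. The mean difference was -0.26 with normexp background correction and -0.034 on slide 2 alone. High-fat array 2 has 7 smeared spots on which normexp acts, and without such spots the median was 0.13; the cause of the other changes was not tested. Over all genes, 1 was called lower in the deposited value table and 1 with the trended robust model. Leaving out 1 array at a time gave 0 to 2 genes called higher, 67 to 78 members above 0, medians of 0.060 to 0.26 (large subunit 0.060 to 0.25, small subunit 0.054 to 0.26) and mean differences of 0.068 to 0.26. The median interaction was 0.51 after normexp background correction, while the deposited values gave 0.021. Scaling to the median moved the median of all genes to 0.075, and relative to it the members' median was 0.15, as with the 75th percentile. It also moved the share of all genes above 0 to 64.6%, and normexp background correction moved the median of all genes to 0.13.

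With array weights the difference was -0.030 for Rpl10. With normexp background correction the difference was -0.40 for Rpl10, -0.28 for Rpl10a, -0.33 for Rpl13a, -0.37 for Rpl19, -0.29 for Rpl22, -0.33 for Rpl24, -0.32 for Rpl3, -0.29 for Rpl32, -0.29 for Rpl39, -0.16 for Rplp0, -0.21 for Rplp1, -0.26 for Rplp2, -0.24 for Rps2 and -0.35 for Rps20. It was -0.41 for Rps21, -0.44 for Rps27, -0.33 for Rps27a, -0.10 for Rps27l, -0.29 for Rps4x, -0.22 for Rps6, -0.15 for Rpsa, 0.21 for Cd3eap, 0.56 for Ddit4l, -0.14 for Eef1b2, -0.059 for Eef1g, -0.37 for Fau and -0.16 for Mrpl23. It was 0.10 for Mrps27, 0.61 for Nvl, -0.28 for Rack1, -0.21 for Rpl22l1, -0.27 for Rpl36al, 0.13 for Rragb, 0.26 for Rrp1b, 0.043 for Rrp9, 0.60 for Taf1b, -0.11 for Tsr3 and -0.15 for Ufsp2. With quantile normalization the difference was -0.0045 for Rpl10, -0.024 for Rpl10a, -0.070 for Rpl13a, -0.12 for Rpl19, -0.087 for Rpl24, -0.042 for Rpl3, -0.0011 for Rps2, -0.033 for Rps20, -0.028 for Rps21, -0.070 for Rps27, -0.012 for Rps4x and -0.060 for Fau. On slide 2 alone the difference was -0.24 for Rpl10, -0.068 for Rpl13a, -0.046 for Rpl19, -0.22 for Rpl24, -0.017 for Rpl3, -0.19 for Rpl32, -0.12 for Rpl36a, -0.19 for Rplp1, -0.079 for Rplp2, -0.10 for Rps20, -0.11 for Rps21, -0.15 for Rps27, -0.078 for Rps27a and -0.047 for Rps4x. It was -0.11 for Fau. In the deposited value table the difference was -0.025 for Rpl13a, -0.073 for Rpl19, -0.012 for Rpl24, -0.0053 for Rpl3, -0.055 for Rps21, -0.017 for Rps27 and -0.0013 for Fau. With the mean of a gene's probes the difference was -0.14 for Rpl39, 1 of whose 3 probes has no value on 1 high-fat array, which by construction moves the mean. With normexp without smeared spots the difference was -0.023 for Rps27 and 0.014 for Ddit4l. On slide 1 alone the difference was 0.015 for Naf1. Leaving out 1 array at a time turned the sign of 8 genes in at least 1 case, with ranges of -0.11 to 0.14 for Fau, -0.073 to 0.14 for Rpl10, -0.037 to 0.13 for Rpl19, -0.029 to 0.21 for Rpl24, -0.0015 to 0.28 for Rpl36a, -0.033 to 0.14 for Rps20, -0.086 to 0.22 for Rps21 and -0.10 to 0.13 for Rps27.

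Replicates of the same number had deviations with r of 0.21, 0.40, -0.0047 and 0.30 for replicates 1 to 4, against 0.064, -0.027, 0.16 and 0.16 for each high-fat array's best match among control arrays of another number. Its own number was the best match for 3 of 4, which replicate 3 did not show. The samples may be paired, but arrays of the same number also share a slide and lie at neighbouring positions. Differences between the slides were not removed here, so pairing cannot be told apart from shared slide and position. The labels state no pairing, and the samples were treated as unpaired. The fit with the replicate number as a block gave 78 members above 0, a median of 0.15 and 0 members called. The simulated diet test recovered 53 of 100 genes changed by 1 on the log2 scale, and changes of the size of the members' differences were not simulated.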

Other observations

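Among features with a gene symbol, some of those most like the members' mean over the 8 arrays were Gm8580 (r = 0.989), Gm15421 (0.986), Gm4963 (0.984) and Gm6109 (0.980), a choice made after the values were seen. They held places 8, 12, 13 and 25 among 19848 genes outside the family.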
